A study of Mus musculus with 131 samples.

Results

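The comparison set the DNA methylome of Gjb2-35delG embryonic stem cells (ESCs) against that of mouse embryonic fibroblasts (MEFs). Its members were 200 bp windows of the 19 autosomes that had a methylation level in both bisulfite libraries. Of 13627618 windows in the deposited tables, 12313737 lay on the autosomes and 7665795 had a value in both. Both lines were cultured cells of the C57BL/6J strain. The MEFs were labelled wild-type at passage 2, and the ESCs carried the Gjb2 35delG deletion, homozygous in the design text, at passage 7. They belong to a series of 131 samples about obtaining Gjb2 mutant mice from ESCs injected into host embryos, Gjb2 encoding a connexin needed for hearing. A further bisulfite library, from Actin-RFP transgenic ESCs of the same strain at passage 10, is given here only for its own values. The MEF library held 316.76 M methylation calls at CpGs (M for 1e+06) and the Gjb2-35delG ESC library 287.947 M. There was 1 library a side, so no difference has a replicate check and no test was run. Cell type, Gjb2 genotype and passage differ together and cannot be told apart. Neither the number of clones behind the ESC line nor that of the embryos behind the MEFs is given in the labels, and the windows do not read the deletion itself.

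In mammalian cells most CpG dinucleotides are methylated, while CpG-rich promoters, called CpG islands, stay largely free of methylation. Dnmt1 with Uhrf1 copies the pattern at replication, Dnmt3a and Dnmt3b add methylation, and Tet enzymes start its removal. Active enhancers and promoters of a cell type tend to lose methylation there. In some cultured somatic cells, long gene-poor stretches drift to intermediate levels and are called partially methylated domains. Germ cell genes and imprinted regions are the classic cases of promoters held silent by methylation.

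The 6 promoter stretches below show 5 sites at which the libraries differed widely and, for contrast, 1 at which they did not. They run from 250 bases before to 50 after a start site, 5′ to 3′, and were copied from RefSeq (build GRCm38.p6), with every CpG in capitals. Zfp42 (a zinc finger gene that marks pluripotent cells), Triml2 (a tripartite motif family gene) and the outermost start of Jade1 (a scaffold of a histone acetyltransferase complex) had methylation in MEF and little in the ESC. The inner start of Jade1, 8017 bp downstream, was low in both libraries over its whole promoter window. The CpG-weighted level there was 7.5% in MEF (621 calls) and 2.52% in the ESC (332 calls). Mfap2 (a microfibril protein) and Ferd3l (a basic helix-loop-helix factor) were low in MEF and high in the ESC. The stretches are at chr8:43306960-43307259 (Zfp42, minus strand), chr8:43180286-43180585 (Triml2), chr3:41555484-41555783 (Jade1, outermost), chr3:41563501-41563800 (Jade1, inner), chr4:141010174-141010473 (Mfap2) and chr12:33928175-33928474 (Ferd3l), the last 5 on the plus strand.
Zfp42: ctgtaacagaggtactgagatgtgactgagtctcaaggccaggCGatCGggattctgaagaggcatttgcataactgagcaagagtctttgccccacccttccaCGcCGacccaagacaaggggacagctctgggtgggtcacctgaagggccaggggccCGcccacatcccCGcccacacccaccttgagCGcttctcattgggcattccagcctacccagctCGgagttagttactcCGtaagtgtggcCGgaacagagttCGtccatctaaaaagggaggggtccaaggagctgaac
Triml2: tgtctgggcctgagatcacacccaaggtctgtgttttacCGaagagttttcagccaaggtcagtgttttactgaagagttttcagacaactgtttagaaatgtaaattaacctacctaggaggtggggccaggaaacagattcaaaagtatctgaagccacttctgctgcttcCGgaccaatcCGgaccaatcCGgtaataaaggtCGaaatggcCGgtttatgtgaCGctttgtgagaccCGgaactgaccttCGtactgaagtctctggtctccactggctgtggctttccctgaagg
Jade1, outermost start: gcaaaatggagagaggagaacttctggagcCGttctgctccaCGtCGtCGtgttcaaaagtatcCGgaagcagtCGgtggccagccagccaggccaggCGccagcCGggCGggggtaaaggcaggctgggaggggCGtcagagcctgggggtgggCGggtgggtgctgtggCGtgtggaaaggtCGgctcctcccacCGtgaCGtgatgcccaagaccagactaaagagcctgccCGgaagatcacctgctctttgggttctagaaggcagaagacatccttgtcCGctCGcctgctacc
Jade1, inner start: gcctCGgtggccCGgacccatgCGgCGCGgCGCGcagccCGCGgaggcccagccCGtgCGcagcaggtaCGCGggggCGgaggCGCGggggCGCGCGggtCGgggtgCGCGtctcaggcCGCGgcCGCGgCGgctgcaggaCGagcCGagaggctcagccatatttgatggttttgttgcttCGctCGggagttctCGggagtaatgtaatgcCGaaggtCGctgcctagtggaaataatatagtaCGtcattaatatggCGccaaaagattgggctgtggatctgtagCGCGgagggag
Mfap2: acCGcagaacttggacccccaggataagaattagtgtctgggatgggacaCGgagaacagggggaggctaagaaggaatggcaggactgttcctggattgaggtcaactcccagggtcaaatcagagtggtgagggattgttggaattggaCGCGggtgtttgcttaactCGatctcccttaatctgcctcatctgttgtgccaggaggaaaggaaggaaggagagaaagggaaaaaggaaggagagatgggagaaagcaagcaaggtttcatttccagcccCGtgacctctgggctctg
Ferd3l: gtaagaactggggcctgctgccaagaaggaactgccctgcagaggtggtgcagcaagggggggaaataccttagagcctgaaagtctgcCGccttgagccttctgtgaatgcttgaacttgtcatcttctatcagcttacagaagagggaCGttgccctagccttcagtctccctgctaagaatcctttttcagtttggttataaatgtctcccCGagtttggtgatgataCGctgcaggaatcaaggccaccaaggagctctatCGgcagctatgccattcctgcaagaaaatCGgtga

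These stretches held 11 CpGs in Zfp42, 9 in Triml2, 18 and 38 at the Jade1 starts, 6 in Mfap2 and 6 in Ferd3l, against a median of 7 over the 31396 autosomal start sites of the table (middle 50% from 3 to 21). In windows overlapping the Triml2 stretch, 144 of 153 calls were methylated in MEF and 5 of 178 in the ESC. At the outermost Jade1 start the counts were 152 of 157 in MEF and 2 of 51 in the ESC. The printed inner Jade1 stretch had 6 of 94 methylated calls in MEF and only 5 calls, at 1 CpG and none methylated, in the ESC, too few for a value. In the windows at either edge of the Zfp42 stretch, 31 of 57 calls were methylated in MEF and 7 of 122 in the ESC, and the window over the start itself had no shared value. Windows overlapping the Ferd3l stretch went the other way, with 12 of 216 methylated calls in MEF and 129 of 189 in the ESC. In the window at chr12:33928401-33928600, most of it past the stretch, 10 of 140 and 65 of 108 calls were methylated. In windows overlapping the Mfap2 stretch the counts were 13 of 49 and 29 of 37. The contrast lay in the window that covers the start, with 4 of 37 against 20 of 25.

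Over all shared windows the mean level was 79.1% in MEF and 67.6% in the ESC, a difference of -11.5 points (median -11.1, SD over windows 20.3). The ESC was the lower one in 75.1% of windows and the higher one in 24%. MEF windows lay mostly at the top of the scale, with 61.2% of them above 80%. In the ESC 68.3% of windows lay from 20 to 80%, compared with 36.5% in MEF. Fully methylated windows made up 6.95% of MEF and 1.93% of the ESC, and windows below 20% made up 2.36% and 4.2%. The ESC thus had fewer windows near full methylation and more at intermediate levels. An intermediate level in a bulk library can come from CpGs methylated in part of the cells or on part of the DNA copies, which cannot be told apart here.

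A window was called when the 2 libraries differed by at least 30 points. By this rule 1105529 windows (14.4%) were lower in the ESC and 197106 (2.57%) were higher. Depth limits single windows: the median was 29 calls in MEF and 27 in the ESC, and the median counting error of a difference was 11 points. In windows of 5 to 19 calls, 17% were called lower and 3.44% higher, and in windows of 80 calls or more 12.7% and 2.09%. The mean difference was -11 points in the shallow windows and -12.3 points in the deep ones. By chromosome it ran from -10.4 points on chromosome 7 to -13.9 points on chromosome 11.

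**Figure D1:**
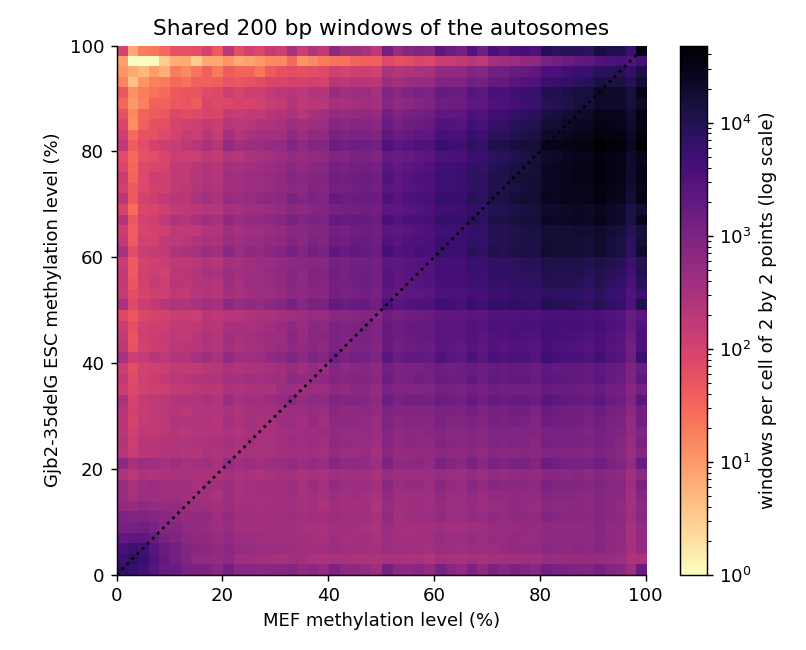
Level of each shared autosomal window in MEF (x axis, %) and in the Gjb2-35delG ESC (y axis, %), coloured by the number of windows on a log scale, with a dotted line where both are equal. Of the windows 75.1% lie below the line, 61.2% lie above 80% in MEF and 27.5% above 80% in the ESC, and a separate group lies near 0% in both.

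CpG density went with the level of a window more than with the difference between the libraries. Windows were classed by the number of CpGs measured in the library that measured more of them. The difference was -10.7 points in windows of 1 CpG (78.2% in MEF, 67.5% in the ESC), -11.4 points for 2, -11.6 for 3 to 4, -11.7 for 5 to 9 and -12.1 for 10 to 14. In the 123172 windows of 15 or more CpGs the level was 55.7% in MEF and 45.2% in the ESC, a difference of -10.5 points. The lower mean in these windows came with a larger unmethylated share in both libraries, 35.4% below 20% in MEF and 38.7% in the ESC.

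CpG-rich windows that were unmethylated in MEF were nearly all unmethylated in the ESC. Of windows with 15 or more CpGs that were below 20% in MEF, 94.0% were also below 20% in the ESC, at a mean of 5.09% in MEF and 6.54% in the ESC. Of windows with 1 CpG below 20% in MEF, 31.6% were below 20% in the ESC, where their mean was 38%. The share was higher in each denser class, with 35.3% at 2 CpGs, 48.5% at 3 to 4, 64.0% at 5 to 9 and 79.6% at 10 to 14. Low-CpG windows hold few calls, a median of 7 in MEF for 1 CpG against 140 for 15 or more, so single values there are less precise.

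At the other end of the scale the mean hardly differed by class. Windows above 80% in MEF averaged 72.3% in the ESC with 1 CpG and 71.9% with 15 or more. The share of such windows called lower was 29.6% with 1 CpG, 21.1% with 2, 16.3% with 3 to 4, 14.4% with 5 to 9, 15.6% with 10 to 14 and 20.4% with 15 or more. Of the CpG-dense windows above 80% in MEF, 3.68% were below 20% in the ESC.

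Ordered by the MEF level, ESC means spanned a narrower range than MEF means. In steps of 10 points, windows at 0 to 10% in MEF had an ESC mean of 13.6%, and windows at 90 to 100% one of 74.1%, a difference of -20.8 points. The mean difference was above 0 up to the step from 50 to 60% (3.53 points) and below 0 from 60 to 70% upwards (-2.60 points). Because the MEF level stands on both sides of this difference, the order and the difference are not independent. Windows were therefore also ordered by the mean MEF level of the other windows within 1000 bp. Ordered so, the difference was 5.80 points where the neighbours were at 0 to 10%, -2.12 points at 30 to 40% and -18.1 points at 90 to 100%. In the highest of these steps the windows stood at 88.9% in MEF and 70.9% in the ESC, and in the lowest at 6.18% and 12%.

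**Figure D2:**
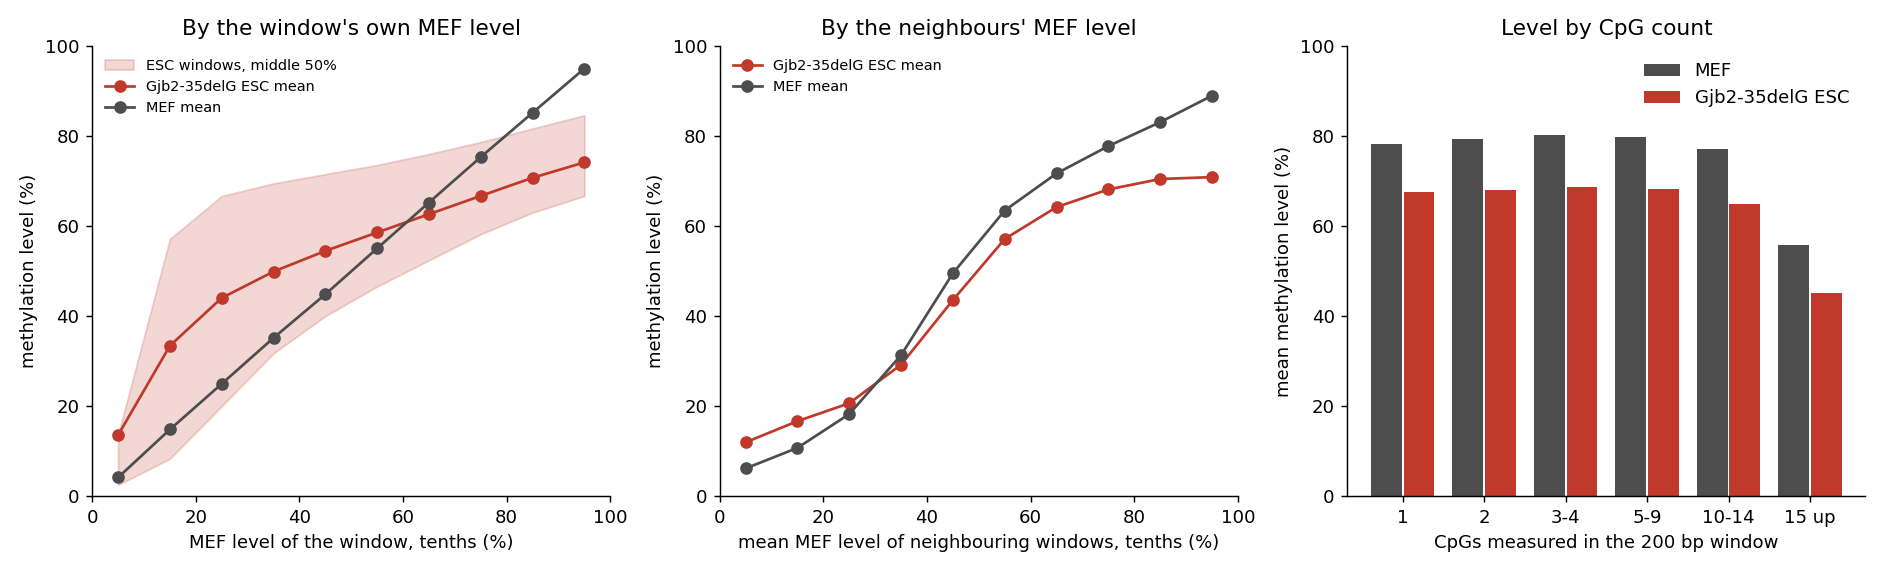
Mean level (%) of the shared windows in MEF and in the Gjb2-35delG ESC, by steps of 10 points of the window's own MEF level (left, with the middle 50% of ESC windows shaded), by such steps of the mean MEF level of windows within 1000 bp (middle) and by CpGs measured (right). The lines cross between 50 and 70% when the window's own level sets the order, and between 20 and 40% when its neighbours set it.

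Partially methylated domains were looked for as 1 Mb bins with a mean below 70% in MEF. Of 2407 bins with at least 500 shared windows, 18 met this, and MEF bins ran only from 62.9% to 85.1% (median 79.5%, SD 2.67). ESC bins ran from 49.3% to 75.8% (median 68.7%, SD 3.81). The ESC mean was above the MEF mean in 4 bins (0.166%), in 2 with only windows of at least 20 calls and in 11 of 2080 with only windows of 1 to 4 CpGs outside genes. By the same limit 1681 ESC bins were below 70%, the 18 MEF bins among them. The 18 bins averaged 68% in MEF and 60.6% in the ESC, a difference of -7.45 points, against -11.3 points in the other 2389 bins. The 18 were picked by their MEF level, which is also part of the difference, so this contrast is not independent of the choice. They held 21.5 protein-coding genes on average, against 8.43 in the other bins, so as a set they were not gene-poor. Whether any of the 18 is a partially methylated domain was not tested.

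Among these bins, some with tandem gene families or without listed protein-coding genes differed little between the libraries. Examples are chr4:113000001-114000000 with Skint family genes (68.4% in MEF, 68.1% in the ESC), chr7:23000001-24000000 with 20 vomeronasal receptor genes (68.9% and 68.1%) and chr12:114000001-115000000 with no protein-coding gene listed (66.9% and 66.1%). Other bins of the 18 were far lower in the ESC. The Hoxb bin at chr11:96000001-97000000 stood at 67.2% and 54.1%, chr13:23000001-24000000, with histone genes and 11 vomeronasal receptor genes, at 67.2% and 55%, chr15:102000001-104000000, with the Hoxc genes among 51, at 69.2% and 55.2%, and chr10:80000001-81000000, with 54 genes, at 69.6% and 50.04%. The bin at chr13:21000001-22000000, with 12 olfactory receptor genes among 42, differed by -14.5 points, and chr18:37000001-38000000, with 67 genes, by -13.8. Gene families thus stood among both the nearly equal and the lower bins. Hox genes set body position and histone genes encode the proteins that package DNA. The examples of chr7, chr10, chr13:21000001-22000000, chr15 and chr18 were chosen after their values were seen.

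The bins with a higher ESC mean all lay in arrays of related gene copies. They were chr7:32000001-33000000 with secretoglobin genes (72.0% in MEF, 74.5% in the ESC), chr7:11000001-12000000 with Zscan4 and vomeronasal genes (72.3% and 73.9%), chr8:21000001-22000000 with alpha-defensins (70.7% and 71.5%) and chr13:120000001-121000000 with Tcstv3 (62.9% and 63.0%). Reads from near-identical copies can be assigned to the wrong copy, so these values are uncertain. The last bin held 649 windows, against a median of 3251.

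Ordered by MEF level, the lowest decile of bins averaged 73.3% in MEF and 64.2% in the ESC, a difference of -9.02 points, and the highest decile 82.6% and 69.3%, a difference of -13.3 points. As with single windows, the MEF level stands on both sides of these differences, so order and difference are not independent. The lowest decile held 23% of the protein-coding genes in bins, but 44.8% of olfactory receptor genes and 76.8% of vomeronasal receptor genes. Olfactory and vomeronasal receptors are odour and pheromone sensors of the nose. With only windows of 1 to 4 CpGs the lowest decile differed by -7.07 points and held 58.3% of the olfactory receptor genes. With such windows outside genes the difference was -6.16 points.

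ESC bins differed more with gene number than MEF bins did. Bins without a protein-coding gene averaged 79.5% in MEF and 69.6% in the ESC. Bins of more than 20 genes averaged 76.4% and 61.7%, so that the difference went from -9.88 to -14.7 points. Across the 2407 bins Spearman's rho with the number of genes was -0.24 for the MEF level, -0.59 for the ESC level and -0.42 for the difference. With windows of 1 to 4 CpGs the values were 0.013, -0.50 and -0.41, and with such windows outside genes -0.28, -0.43 and -0.18. Neighbouring bins share reads of the same libraries and differ in CpG density, so these are descriptions. In windows of 1 to 4 CpGs outside genes, the difference was -9.93 points in bins with no gene and -11.9 points in bins of more than 20. The steepest bin differences were in gene-rich bins: chr4:132000001-133000000 with 22 genes (80.4% in MEF, 55.3% in the ESC), chr11:97000001-98000000 with 28 (73.9% and 49.3%) and chr4:129000001-130000000 with 31 (78.3% and 54%).

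**Figure D3:**
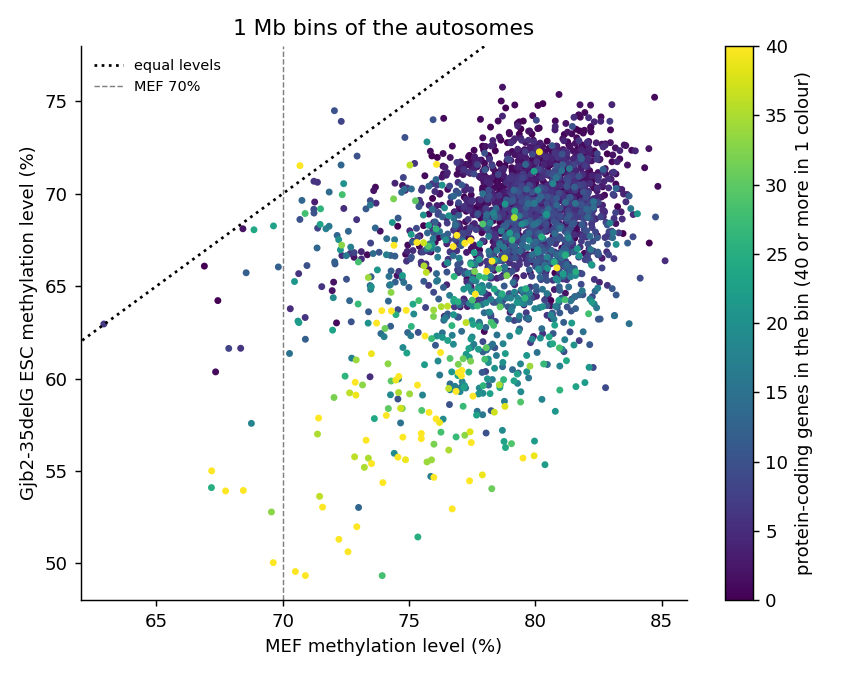
Mean level of each 1 Mb autosomal bin in MEF (x axis, %) and in the Gjb2-35delG ESC (y axis, %), coloured by the number of protein-coding genes, with a dotted line at equal levels and a dashed line at 70% in MEF. All but 4 of 2407 bins lie below the dotted line, and the lowest ESC bins are gene-rich.

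Bins of 100 kb, looked at after the larger ones, showed sharper differences. Of 23905 such bins, 750 were below 70% in MEF and 265 (1.11%) had a higher ESC mean, 137 of which were among the 750. The widest gap upwards was at chr13:120000001-120100000, which held 116 windows and no listed gene (16.9% in MEF, 30.5% in the ESC). Next came several genes of embryonic patterning: the Hoxc6 to Hoxc13 stretch of chromosome 15 (19.9% in MEF, 32.1% in the ESC), Zic1 and Zic4 (44.5% and 54.3%), Gata4 (54.4% and 63.4%) and Tbx5 (56.1% and 64.4%). A bin with Rhcg, an ammonium transporter, stood at 45.2% and 54.2%, and a bin within Dnm3, a dynamin gene, at 66.5% and 75.2%. Wide gaps downwards covered Usp7, a deubiquitinase (81.7% and 30.6%), the Stk38, Srsf3 and Cdkn1a stretch (69.7% and 24.6%) and Cd9, a surface tetraspanin (75.6% and 30.7%). These names were chosen after their values were seen.

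Position in genes came next. Promoter windows, from 1000 bp upstream to 500 bp downstream of the 5′ end of protein-coding genes, averaged 45% in MEF and 36.3% in the ESC, a difference of -8.71 points. Gene bodies, at least 1000 bp away from any promoter window, averaged 81.6% and 67.8%, a difference of -13.8 points. Windows outside all genes averaged 78.8% and 69.0%, a difference of -9.79 points. In MEF gene bodies were thus above intergenic DNA, and in the ESC they were below it.

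Along gene bodies the difference was -14.6 points in the first of 10 equal parts, -15.2 in the second and -13.3 in the last. Shorter genes differed more. Bodies of 5 to 20 kb averaged 80.7% in MEF and 62.3% in the ESC, those of 20 to 100 kb 82.9% and 65.6%, and those over 100 kb 81.8% and 69.0%. Of 11680 genes with at least 20 body windows, 11478 were lower in the ESC and 202 higher, at a median difference of -16.1 points.

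By the 30-point rule 1039 gene bodies (8.90%) were lower in the ESC and 6 (0.0514%) were higher. The widest gaps were in small genes: Tefm, a mitochondrial transcription elongation factor (90.6% in MEF, 12.9% in the ESC), Nanog, a core pluripotency factor (88.1% and 12.8%), Rps3, a ribosomal protein (85.0% and 14.7%), and Zfp57, which protects imprints (79.9% and 9.68%). Of larger ones, Mybl2, a cell cycle transcription factor, stood at 89.7% and 25.3% over 30362 bp. The 6 higher bodies were Prdm13 (16.7% in MEF, 53.6% in the ESC), Pdx1 (9.5% and 46.2%), Slc32a1 (6.38% and 40.7%), Tfap2b (10.5% and 44.7%), Lhx3 (13% and 44.1%) and Isl1 (18.2% and 49%). Slc32a1 is a vesicular transporter of inhibitory neurons, and the other 5 are transcription factors of neural, pancreatic or crest lineages.

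Around the 5′ ends of 12973 genes with 20 or more CpGs in the promoter, the libraries were close at the start and apart in the flanks. From 0 to 200 bp downstream the level was 25.8% in MEF and 22.4% in the ESC, a difference of -3.43 points. Between 1000 and 1200 bp downstream it was 51.3% and 35.3%, and between 2000 and 2200 bp 73.2% and 53.8%. Upstream, at 1400 to 1200 bp, it was 72.7% and 53.3%, a difference of -19.4 points. For 3483 genes with fewer CpGs the levels ran from 65.0% to 76.9% in MEF across the 10 kb on either side, and the difference was -7.28 points at 0 to 200 bp.

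**Figure D4:**
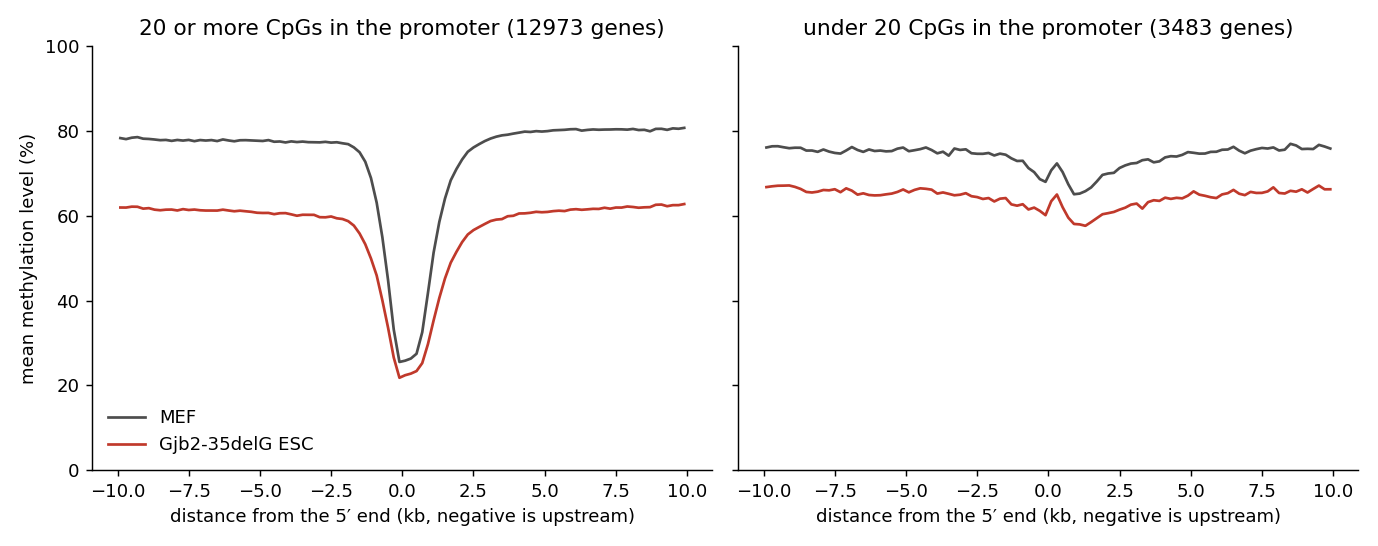
Mean level (%) in steps of 200 bp around the 5′ end of genes with a known strand, in MEF (grey) and in the Gjb2-35delG ESC (red), for promoters of 20 or more CpGs (left) and fewer (right). On the left the lines dip to 25.5% and 21.8% at the start, and the difference reaches -19.7 points in the flanks.

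Of 20661 protein-coding autosomal genes, 18039 had a promoter with at least 10 CpGs and 100 calls in each library. Their mean was 37.4% in MEF and 30.7% in the ESC, with a median difference of -4.51 points, 13719 lower and 4320 higher. By the 30-point rule 832 promoters (4.61%) were lower in the ESC and 126 (0.698%) were higher. Most promoters were in the same range in both: 7577 were below 20% in both and 4876 between 20 and 80% in both. Of promoters above 80% in MEF, 465 were above 80% in the ESC, 2436 between 20 and 80% and 60 below 20%. Of those below 20% in MEF, 1 was above 80% and 522 were between 20 and 80% in the ESC.

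Promoters of 20 to 39 CpGs were called most often, 8.17% lower and 1.32% higher. Promoters of 80 CpGs or more were called least, 1.12% lower and 0.195% higher. Called lower promoters had a median of 77.1% in MEF and 26.6% in the ESC, and 332 of the 832 were below 20% in the ESC. Called higher promoters had a median of 24.8% in MEF and 65.0% in the ESC.

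Where a gene has several starts, the outermost 5′ end was read, which is often not its main CpG-rich promoter. Moving to the start with most CpGs in the promoter table left 468 of 14276 promoters (3.28%) lower and 95 (0.665%) higher, against 636 (4.48%) and 97 (0.684%) of 14190 at the outermost end of genes with a known strand. For the other 3849 passing promoters no strand was at hand, and the CpG-richer end was read. In genes with a strand this end was the 5′ one in 74.4% of cases. With a wider window, from 2000 bp upstream to 1000 bp downstream, 833 promoters were lower and 52 (0.261%) higher.

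The 12 promoters furthest below MEF had a median of 90.7% in MEF and 5.65% in the ESC, and of 4.44% in the Actin-RFP ESC. A promoter level is weighted by CpGs, while its interval is that of all its calls pooled. The outermost end of Rbpj, the DNA-binding effector of Notch signalling, was at 93.8% in MEF (95% Wilson interval of the calls 90.3 to 95.9%) and 3.65% in the ESC (2.22 to 6.92%). Jade1 was at 95.7% and 5.94%, Zdbf2, an imprinted gene, at 92.0% and 2.53%, and Trip12, a ubiquitin ligase, at 93.9% and 5.36%. Usp7 was at 88.8% and 6.22%, and Snapc3, of the complex that transcribes small nuclear RNA genes, at 96.3% and 15.7%. These intervals cover counting error only.

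For these 6 genes the table lists another start, low in both libraries. At the inner start of Rbpj, 34567 bp downstream, the level was 2.66% in MEF and 3.06% in the ESC. At inner starts of Trip12 it was 3.53% and 1.73%, of Usp7 4.02% and 3.60%, of Snapc3 6.90% and 5.79%, and of Zdbf2 10.1% and 11.4%. At the CpG-rich inner start of Jade1, printed above, it was 7.5% and 2.52%, and at a start between the printed ones, 7649 bp from the outermost, 21.2% and 2.88%. In the Actin-RFP ESC the unweighted means at the outermost starts were between 3.0% and 4.46% in 4 of the 6. They were 12.7% in Zdbf2 and, over 3 windows, 41.3% in Snapc3.

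Germ cell and early embryo genes were among the other 6. Triml1 (88.7% in MEF, 2.76% in the ESC) and Triml2 (87.4% and 2.59%) have opposed ends on one short stretch, so their promoter windows overlap and are not separate sites. At another listed start of Triml1, 39008 bp from that end, the level was 91.3% in MEF and 77.1% in the ESC. Dppa5a, an ESC marker, stood at 86.9% and 3.94% and Zfp977 at 90.8% and 6.94%. Spata25, a testis gene, stood at 90.7% and 9.61%. Msh4, a meiotic recombination factor, stood at 88.2% and 7.73%, and at its inner start at 82.9% and 17%.

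The 12 promoters furthest above MEF had a median of 14.9% in MEF and 71.1% in the ESC, and of 38% in the Actin-RFP ESC. They included genes of connective tissue. Tmem176a, a membrane protein, was at 10.9% in MEF (7.62 to 17.9%) and 76.4% in the ESC (68.4 to 83.8%). Ddr2, a collagen-binding receptor kinase, was at 16.1% and 81.2% at its outermost end, but at its inner start it was at 91.9% in MEF and 72.9% in the ESC. Collagen genes followed, with Col1a1 at 4.48% and 64.9% and Col3a1 at 13.8% and 66.7%. The 300 bases at the Col3a1 start hold 0 CpGs, so its value comes from CpGs farther off in the promoter window.

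Mfap2 was at 18.2% in MEF and 70.4% in the ESC, and Adamtsl2, a secreted matrix protein, at 19.6% and 71.8%. The limb and heart factor Tbx5 was at 20.2% and 72.0%, and Ferd3l at 6.33% and 60.7%. Krt80 (32.5% and 85.4%) and Sdr42e1 (21.8% and 74.6%) were also among the 12. With the wider promoter window Krt80 differed by 27.6 points, Col3a1 by 24.1 and Sdr42e1 by 12.1, all under 30. Dppa5a, Col1a1, Krt80, Sdr42e1 and Tbx5 were read at the CpG-richer end of the gene, which is not known to be the start.

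Marker promoters were read as a check of the labelled cell types. Of 30 passing pluripotency genes, 28 were lower in the ESC, 12 by at least 30 points and 0 higher by that much. The 12 include Dppa5a, named above for its wide gap, so it is not a separate check. Over all promoters 13719 of 18039 were lower, 4.61% by at least 30 points. The median difference of the listed genes was -17.3 points against -4.51 over all promoters. In the ESC 25 of the 30 were below 20%, compared with 11 in MEF. Spp1 was at 72.5% in MEF and 2.01% in the ESC, Zfp42 at 72.4% and 3.65%, and Klf5, a Krüppel-like factor, at 90.7% and 22.6%. Klf5 was read at the CpG-richer end of the gene. Pou5f1, the central pluripotency factor, was at 51.8% and 2.93%, and Nanog at 49.2% and 5.64%. Sox2 and Klf4, both reprogramming factors, were low in both libraries, at 4.73% and 4.72%, and at 4.87% and 3.19%.

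Not every listed pluripotency gene was unmethylated in the ESC. Dppa2 stood at 87.9% in MEF and 60.6% in the ESC, and Dppa4 at 86.8% and 68%, both at the CpG-richer end of the gene. Esrrb, a nuclear receptor of naive pluripotency, was at 49.5% and 70.1% at its outermost start and at 13% and 20.6% at an inner start 60527 bp downstream. Lin28a, which blocks let-7 maturation, was the other member with a higher ESC level, 2.51% and 8.78%.

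Of 32 passing fibroblast and mesenchyme genes, 25 were higher in the ESC, 7 by at least 30 points and 0 lower by that much. The 7 include Col1a1, Col3a1 and Tbx5, named above for their wide gaps, so these are not a separate check. Over all promoters 4320 of 18039 were higher, 0.698% by at least 30 points. The median difference of the listed genes was 8.33 points. In MEF 17 were below 20%, and in the ESC 10. Postn, a matrix protein of periosteum, was at 30.9% in MEF and 76.8% in the ESC, Col5a2, a collagen chain, at 29.8% and 73.3%, and Tcf21, a mesenchymal factor, at 17.4% and 59.4%. Acta2, smooth muscle actin, was at 41% and 71.3%. Vim, Twist2 and Fn1 were low in both libraries, Vim at 2.83% and 3.91%. Col5a2 and Fn1 were read at the CpG-richer end of the gene.

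The listed germ cell genes were at intermediate to high levels in the ESC, unlike Msh4 and Spata25 above, which are not on that list. Of 23 passing, 22 were lower in the ESC and 10 by at least 30 points (4.61% over all promoters), with a median of 87.2% in MEF and 56.8% in the ESC. None of them was below 20% in the ESC, where they ran from 37.3% to 86.2%. Sycp1, of the synaptonemal complex, was at 90.4% and 44.9%, Syce1 at 81.7% and 40.8%, and Rpl10l, a testis copy of a ribosomal protein gene, at 95.7% and 55.3%. Tdrkh, a piRNA pathway gene, was the exception at 18.8% and 55.1%.

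Promoters of maternally imprinted regions were mostly at intermediate levels in both libraries. Of 15 passing, 13 were from 20 to 80% in MEF and 11 in both, and 11 differed by less than 20 points. Snurf was at 46% in MEF and 36.3% in the ESC, and Igf2r at 47% and 36.8%. Mest was at 58.4% and 55.5% at its outermost start, and at 43.1% and 33.4% at the start 4544 bp downstream. Gnas, a G protein locus with several imprinted starts, was at 47.7% and 9.29% at its outermost start and at 61.0% and 12.3% at the start 43429 bp downstream. Inpp5f was at 50.1% and 82.3%. Zdbf2, described above, is also of this list.

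Most developmental factors of other lineages were low in both libraries and somewhat higher in the ESC. Of 27 passing, 25 were below 20% in MEF and 21 in the ESC, and the highest was Gata4, read at its CpG-richer end, at 84.9% and 73.7%. In the ESC 22 were higher, with a median of 5.27% in MEF and 11.1% in the ESC and a median difference of 5.35 points. Over all promoters 4320 of 18039 were higher. Pdx1, a pancreas factor, was at 4.4% and 28.3%, and Pax3, read at its CpG-richer end, at 6.51% and 19.9%. Foxa2 was at 12% and 28.6% at its outermost start. At inner starts of Foxa2 the levels were 4.19% and 8.54%, and 5.15% and 7.42%. Of the 37 passing Hox genes, 19 were higher and 18 lower, with a median difference of 0.18 points and 0 past 30 points.

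**Figure D5:**
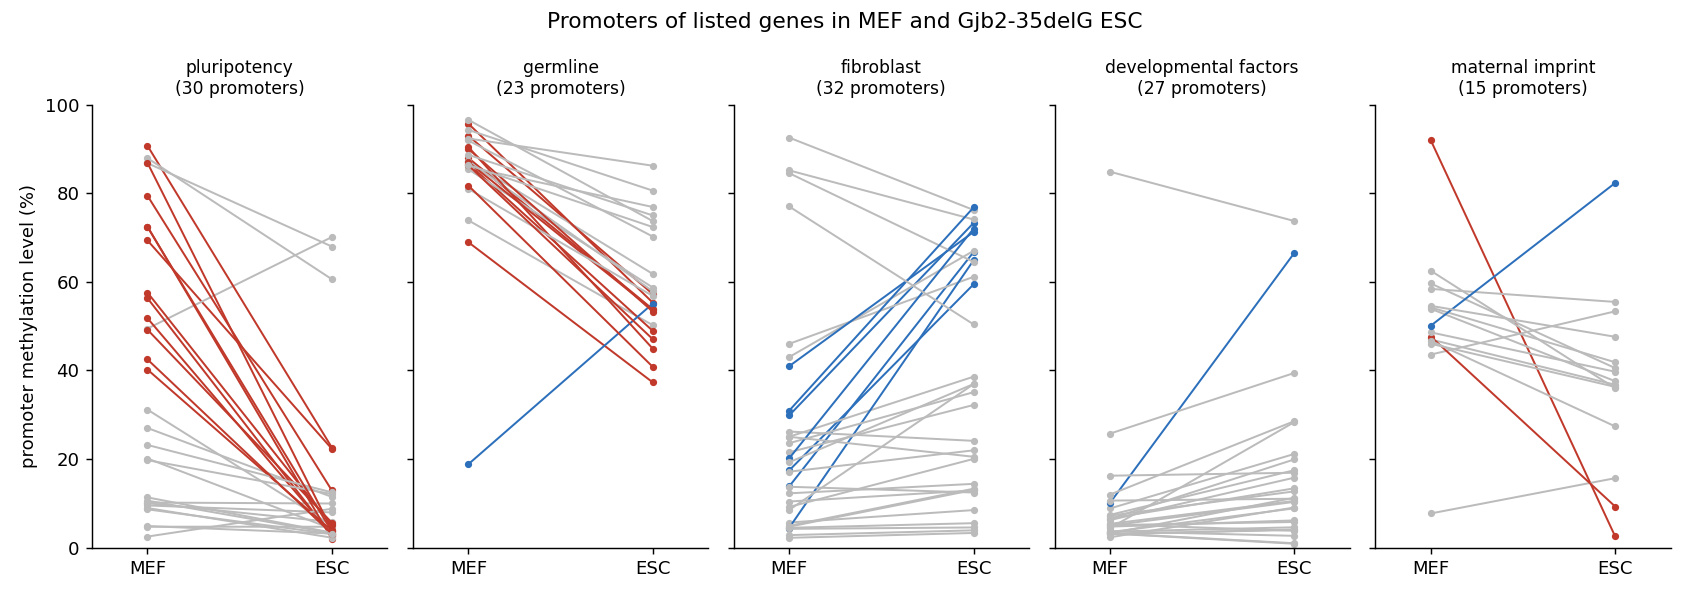
Promoter level (%) of each passing gene of 5 lists in MEF and in the Gjb2-35delG ESC, joined by a line, in red where at least 30 points lower in the ESC, in blue where at least 30 points higher and in grey otherwise. Pluripotency promoters end mostly below 20% in the ESC, germ cell promoters between 37.3% and 86.2%, and 7 of 32 fibroblast promoters are at least 30 points higher in the ESC.

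Markers of other cell types were read too, and their part in the differences was not tested. Over all promoters 13719 of 18039 were lower in the ESC, and 4.61% by at least 30 points. Of 20 blood and endothelial promoters, 16 were lower in the ESC, 1 by at least 30 points (Eng, 68.2% and 30.2%), with levels from 8.0% to 92.8% in MEF and from 10.1% to 86% in the ESC. Of 20 epithelial promoters 17 were lower, 3 by at least 30 points (Prss8, Rab25 and Krt8), with levels from 4.62% to 84.4% in MEF and from 2.78% to 80.4% in the ESC. Prss8 was read at its CpG-richer end. Of 15 trophoblast promoters 9 were lower and 6 higher, 1 each by at least 30 points: Gcm1 (73.4% and 41.3%) and the outermost end of Gata3 (9.65% and 43.1%), whose inner start was at 4.23% and 2.94%. Trophoblast levels ran from 3.0% to 92.0% in MEF and from 4.11% to 81.0% in the ESC. Housekeeping genes had medians of 11.6% and 6.57%, with Actb, read at a CpG-richer end, the 1 of 18 past 30 points.

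Among 20 genes of the DNA methylation machinery 4 were at least 30 points lower, against 4.61% over all promoters. They were Zfp57 (92.2% in MEF, 29.9% in the ESC), Dppa3, which blocks maintenance (79.4% and 12.9%), Hells, a remodeller needed for methylation (42.1% and 4.31%), and Mbd2, a reader of methylated DNA (78.2% and 46.6%). Dppa3 and Mbd2 were read at the CpG-richer end of the gene, which is not known to be the start. Start choice mattered here. At inner starts Zfp57 was at 21.03% and 3.999%, and at 22.2% and 2.81%, and Hells was at 11.9% and 3.99%, none of them 30 points apart. Dnmt3l, a cofactor of the Dnmt3 enzymes, was at 68.5% and 67.4% at its outermost start, but at 82.4% and 3.33% at a start 7555 bp downstream. At the outermost start of Dnmt1 both libraries stood at 88.0%, while at an inner start it was 17% in MEF and 3.88% in the ESC. Of 17 connexins, the gap junction proteins, 10 were lower and 7 higher. Gjb2 itself was at 14.9% in MEF (13.7 to 21%) and 18.6% in the ESC (16.6 to 24.2%), and the intervals overlapped. Gjb5 was the only connexin past 30 points, at 55.3% and 7.29%.

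Promoters of olfactory and vomeronasal receptors, beta-defensins and keratin-associated proteins were mostly methylated in both libraries. Of 581 olfactory receptor promoters that passed, 498 were lower in the ESC, 2 by at least 30 points, with medians of 78.9% and 70.5% and a median difference of -8.07 points, against -4.51 over all promoters. Vomeronasal receptors had a median difference of -5.36 points over 116 promoters, beta-defensins -5.66 over 27 and keratin-associated proteins -4.59 over 34. Histone promoters were mostly low in both, at medians of 4.33% and 4.10% over 60. Of 353 zinc finger genes named Zfp, 24 (6.80%) were at least 30 points lower and 1 higher, with a median difference of -5.55 points, close to the 4.61% and -4.51 points over all promoters.

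Long stretches with little methylation in the ESC alone of the pair were far more frequent than the reverse. Runs were at least 3 windows, with gaps of at most 1 window, that all differed by 50 points or more, a rule met by 3.71% of windows in the lower direction and 0.566% in the higher one. There were 22289 runs lower in the ESC, 1116 of them of 10 windows or more, and 1345 runs higher in the ESC, 3 of them that long. Of the lower runs 68.9% touched a gene without touching a promoter window, and 4.24% touched a promoter window. Of the higher runs these shares were 56.6% and 3.49%. The remaining 26.9% of lower and 39.9% of higher runs touched neither. Among all windows 46.2% lay outside all genes and promoter windows, and 1.47% lay in promoter windows. Gene bodies held 42.7%, but that class is narrower than the genes touched by runs, as it leaves out short genes and promoter flanks. A run of several windows can also touch more than a single window does.

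The longest lower run covered 9000 bp of Etv5, an ETS transcription factor (chr16:22403001-22412000), with 85.7% in MEF and 4.86% in the ESC over 41 windows. A run of 8600 bp lay in Mybl2 (chr2:163056001-163064600, 88.3% and 6.08%). Runs of 6200 to 8200 bp lay in Gpr107, Fn1, Atad5 with Tefm, and Mkrn1, 6132 bp from Tet1 (chr10:62893601-62900400, 83.1% and 5.02%) and 45026 bp from Klf9. Tet1 encodes a demethylating oxidase. In the Actin-RFP ESC the same 8 runs stood between 3.49% and 8.46%.

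The longest higher runs were 1800 to 2200 bp. Of the 8 longest, 3 lay in Dnm3, as did 6 of the 100 longest. The run at chr1:162216601-162218400 had 5.22% in MEF and 79.2% in the ESC and overlapped Mir199a-2 and Dnm3os. Dnm3os is a non-coding RNA, antisense to Dnm3, that hosts microRNAs of mesenchyme. Over the whole of Dnm3os (chr1:162217623-162225550) the level was 10.7% in MEF and 71.7% in the ESC, while over Dnm3 it was 72.0% and 73.3%. Another such run covered the outermost end of Ddr2 (7.65% and 77.2%), and others lay 2752 bp from Tlx3, 31165 bp from Tmem33 and 142242 bp from Parp8, the nearest protein-coding genes. In the Actin-RFP ESC, whose 1 Mb bins of 70% or more in MEF averaged 38.1%, the 8 longest higher runs stood between 30.5% and 59.5%.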

How the data were processed

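Genomic DNA was sheared to 200 to 400 bp, converted with bisulfite and made into Accel-NGS Methyl-Seq libraries, per the labels' protocols. The authors deposited 1 table of 200 bp windows a library, with the methylation level as a fraction, counts of calls split by methylation state, and the number of CpGs measured. The meaning of these columns was taken from their values: the fraction follows the call counts, and every covered window had at least 5 calls per CpG. The submitters' processing notes name the build mm10 and the tools DESeq2 1.30.0, deepTools 3.3.1, StringTie 2.0, STAR 2.7.3a, fastp 0.20.0 and featureCounts 2.0.0, without their roles. For the bisulfite reads, aligner and caller: not given in the sources used here. Levels are shown in percent and differences in points, ESC minus MEF.

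Gene positions and sequences came from RefSeq tables (GRCm38.p6), with symbols as given there. A promoter is the CpG-weighted mean of windows centred from 1000 bp upstream to 500 bp downstream of the outermost 5′ end, with at least 10 CpGs and 100 calls in each library. For the Actin-RFP ESC the unweighted mean of such windows is given. For 4205 genes without a strand, the gene end with more CpGs was used. Gene bodies were of genes of at least 5000 bp.

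Named items were the 12 promoters furthest below and above MEF (predicted genes left out), the listed genes, Gjb2, the 6 bins of 1 Mb with the lowest MEF level and the 6 with the widest gap either way, and the 8 longest runs either way. The members and lists were chosen with earlier results of these data known. No test was possible with 1 library a side, and intervals are 95% Wilson intervals of counting error; PCR copies carry no molecular identifiers, so calls are not all independent molecules. Alternatives varied the calls per window, the level, the windows, the bins, the promoter window and the start. The scripts were tested on simulated data. Python 3.11.15, numpy 2.4.6, pandas 2.3.3, scipy 1.17.1 and matplotlib 3.10.9 were used. The expression and amplicon tables were not used here. Some named items are not reported here.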

Additional observations from a re-analysis of the deposited data

How the results depend on the processing

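No paired analysis was possible because each side had 1 library. The mean difference over all windows was below 0 under each alternative run. With at least 20 calls a window the mean difference was -11.9 points, 573782 windows were at least 30 points lower and 89542 higher (of 4543350), and windows of 15 or more CpGs differed by -10.6 points. The mean difference was -11.5 points with methylated calls over all calls and in windows with a value in all 3 libraries, where windows of 15 or more CpGs differed by -10.5 points, and -11.7 points when weighted by CpGs. Ordered by neighbouring windows, the difference was -18.1 points at 90 to 100% in MEF and 5.80 points at 0 to 10%, and its sign turned in the steps from 30 to 40% (14.7 to -2.12 points), 40 to 50% (9.63 to -5.96) and 50 to 60% (3.53 to -6.33). For the lowest decile of 1 Mb bins the difference was -7.07 points with windows of 1 to 4 CpGs, -9.10 with bins shifted by 0.5 Mb, -10.6 with at least 20 calls, -7.88 with bins of 100 kb and -6.16 with windows of 1 to 4 CpGs outside genes. The last setting gave 11 bins with a higher ESC mean, and at least 20 calls gave 2. Gene bodies of at least 20000 bp differed by -13.4 points. With promoters from 2000 bp upstream to 1000 bp downstream, 52 were at least 30 points higher, and at the start with most CpGs 468 were at least 30 points lower. At that start Rbpj differed by 0.40 points, Zdbf2 by 1.36 and Ddr2 by -19.0. Of the 24 promoters named for their differences, 17 moved beyond their counting interval with the wider window, some of them to under 30 points, and 2 with 500 bp on either side. The causes of these shifts were not tested. The settings with the start of most CpGs, with genes of known strand and with windows outside genes were chosen after seeing the data. Depth limits single windows, and the spread between cultures was not measured.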

Other observations

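The autosomes alone were compared. The X chromosome took 2.67% of methylation calls in the MEF library, 1.43% in the Gjb2-35delG ESC library and 1.56% in the Actin-RFP ESC library, and the Y chromosome 0.0674%, 0.130% and 0.171%. The sex of the lines is not stated in the labels used here. A difference in sex between the cultures was not tested and could not be told apart from those of cell type, genotype and passage.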
